A study of Strongylocentrotus purpuratus with 5 samples.

Results

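Solitary accessible regions of the *S. purpuratus* genome were those open at both blastula stages with no other open region nearby. A region of the pooled 20 h list counted as solitary when it overlapped a region of the pooled 12 h list by at least 1 bp, when no other region of either list lay within 10000 bp on either side, and when both ends of its scaffold were at least 10000 bp away. Of 258515 pooled 20 h regions, 312 met these conditions. The regions were chosen by their positions in both pooled lists, so that their overlap between stages and their distance from other regions are given as a description. Peaks of the separate libraries were not part of the choice in themselves, although the pooled 20 h list was called on the same libraries.

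Chromatin accessibility was profiled by ATAC-seq, in which the Tn5 transposase inserts sequencing adapters into open DNA, in whole *S. purpuratus* embryos kept at 15 °C. The later stage was represented by 3 libraries of 20 h embryos, which the labels name hatching blastulae. Technical replicates 1 and 2 (TR1 and TR2) shared biological replicate 1, and a single library (R2) came from biological replicate 2. The earlier stage was represented by 2 biological replicates of 12 h embryos, labelled with the same stage name, which enter here only as their pooled list of 238838 regions. Nuclei of TR1 and TR2 were isolated by another published protocol, whereas a density gradient was used for R2 and for the 12 h embryos, so that preparation and biological replicate at 20 h cannot be told apart. All samples were whole embryos, so that a region open in few cells and a region weakly open in many cannot be told apart.

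Accessible DNA is DNA that nucleosomes leave free, and it is found at promoters, enhancers, silencers and insulators. Such sites often lie in groups along the DNA around developmental genes, where several enhancers may act on the same promoter, while others lie far from any neighbour. In sea urchins the blastula is the period in which the gene regulatory networks of endoderm, mesoderm and ectoderm come into play. Regions were not assigned to genes here, so that promoters and distal elements among the solitary regions were not separated.

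Solitary regions were rare at every step of their selection. Overlap with the 12 h list was found for 164438 regions of the 20 h list (63.6%). Of these, 2271 had no other 20 h region within 10000 bp, 1534 also had no other 12 h region within that distance, and 312 also lay far enough from the scaffold ends. Most isolated shared regions thus lay too near a scaffold end, and 999 shared regions had no other region on their scaffold at all. The distance to the nearest other region at solitary regions ran from 10039 to 127447 bp with a median of 14276 bp, against a median of 386 bp over all shared regions. The nearest other region belonged to the 20 h list at 169 solitary regions and to the 12 h list at 140. Only 69 solitary regions were more than 20000 bp from another region, and 10 were more than 50000 bp away.

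Isolated regions matched across stages less often than regions at large. By the same limits 1033 regions of the 20 h list were isolated from all others, and the 312 shared ones made up 30.2% of them (95% Wilson interval 27.5 to 33.1), against 63.6% of all 20 h regions. The other 721 isolated 20 h regions had no 12 h counterpart. Among 724 isolated regions of the 12 h list, 313 were shared with 20 h embryos, which was 43.2% (39.7 to 46.9), against 63.9% of all 12 h regions. All 312 12 h partners of solitary regions were isolated by the same limits, so the pairs stood alone at both stages. Isolation was one of the conditions here, and both lists cap the number of peaks, so these shares are descriptions of the lists. The intervals here and below treat regions as independent and cover counting error only.

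Solitary regions were spread thinly over the assembly. They lay on 284 of 10659 scaffolds, of which 257 held 1, 26 held 2 and 1 held 3 of them. The scaffolds with solitary regions were between 27183 and 2146690 bp long, with a median of 356786 bp. They held 26.6 regions of the 20 h list per 100 kb, against 30.0 on other scaffolds of at least 20000 bp. By region, 74.7% of solitary regions (233) but 25.3% of regions with neighbours within 1000 bp lay on scaffolds that were sparser than the assembly as a whole, which had 29.5 regions per 100 kb. Sparse scaffolds favour isolation by construction, and assembly gaps or repeats were not examined here. Where 2 solitary regions were next to each other on a scaffold, which occurred in 28 pairs, they were at least 10859 bp and in the median 43072.5 bp apart.

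The scaffold with most solitary regions was scaffold 129, and its 3 regions differed in library support. The region from 40580 to 40732 had a peak in TR2 alone, with a fold enrichment of 3.43. The region from 406623 to 407073 also had a peak in TR2 alone, with a fold enrichment of 6.44, while that from 52524 to 53109 had peaks in all 3 libraries. Of the 26 scaffolds with 2 solitary regions, the first by name were 1294 and 136, with regions at 83351 to 83500 and 104339 to 104553 and at 389476 to 389784 and 482228 to 482382. None of these 4 had a peak in all 3 libraries.

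Solitary regions were shorter than regions with neighbours. Their median length at 20 h was 228 bp, with a range of 150 to 2966 bp, against a median of 293 bp for the 130280 shared regions that had another region within 1000 bp, here called neighboured. The ratio of medians was 0.778. Over all pooled 20 h regions the median length was 252 bp. Together the 312 solitary regions covered 100091 bp. At 150 bp, the shortest length in the list, were 27 of them (8.65%), against 5.54% of neighboured and 9.60% of all pooled 20 h regions. With 1 pooled list per stage, lengths carry no replicate error.

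Bounds of solitary regions shifted less between stages than those of neighboured regions. The median length ratio of the 20 h region to its 12 h partner was 0.942 (95% binomial interval of the median 0.916 to 0.967) at solitary regions and 0.847 at 97912 neighboured regions that matched a single partner. Of the solitary regions 121 were longer at 20 h, 189 (60.6%) were longer at 12 h and 2 were equal, against 69.4% longer at 12 h among neighboured regions. The shared bases made up a median of 76.9% of the span of both regions at solitary sites and of 67.6% at neighboured sites. Starts differed between stages by a median of 27 bp at solitary and 51 bp at neighboured regions, and ends by 29.5 and 51 bp in the same order. Both bounds lay within 20 bp of those at 12 h in 66 solitary regions (21.2%), against 6.90% of neighboured regions. These shifts were not matched for length. The neighboured regions were mixed, with a median length ratio of 1.01 up to 100 bp from another region and 0.829 at 101 to 1000 bp. Shared regions at 5001 to 10000 bp, which are not solitary, had a ratio of 0.938 and a shared span of 72.3%. The plot of 20 h length against 12 h length shows the spread of these pairs.

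**Figure D1:**
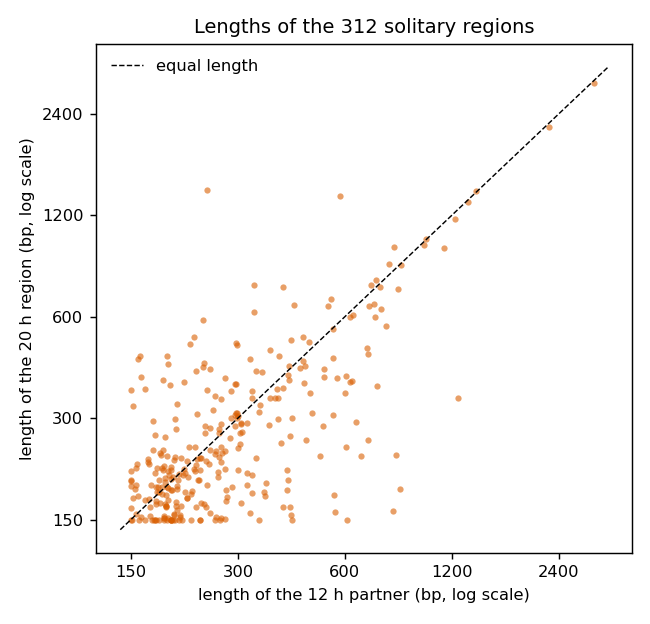
Length of each of the 312 solitary regions in the pooled 20 h list (vertical axis) against the length of its partner in the pooled 12 h list (horizontal axis), both in bp on log scales, with 1 point a region and a dashed line at equal length. Points scatter to both sides of the line, with 189 below it and 121 above it.

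The longest solitary regions included pairs with nearly the same bounds and pairs that differed widely. On scaffold 741 the region from 406823 to 409788 spanned 2966 bp at 20 h and 3005 bp at 12 h. Scaffold 1407 carried one of 2191 bp at 20 h and 2252 bp at 12 h, and scaffold 626 one of 1413 bp at 20 h and 1405 bp at 12 h. In contrast, the region on scaffold 167 from 146578 to 148006 spanned 1429 bp at 20 h and only 246 bp at 12 h, and that on scaffold 45 from 520102 to 521472 spanned 1371 bp at 20 h and 583 bp at 12 h. The first 3 had peaks in all 3 libraries of 20 h embryos, whereas the last 2 had peaks in TR1 and TR2 and none in R2.

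Among solitary regions with peaks in all 3 libraries, the length ratio of 20 h to 12 h ran from 0.452 to 2.87. The highest ratios belonged to scaffold 842 from 163213 to 163669 with 2.87 and to scaffold 1422 from 16811 to 17258 with 2.85. The region of scaffold 129 from 52524 to 53109 followed with 2.45, then that of scaffold 913 from 110367 to 111109 with 2.24 and that of scaffold 1031 from 216683 to 217418 with 1.83. In each of these 5 the 12 h region lay inside the 20 h region. The lowest ratios belonged to scaffold 81 from 484359 to 484650 with 0.452 and to scaffold 990 from 95288 to 95546 with 0.556. The region of scaffold 2515 from 130360 to 130746 followed with 0.614, then that of scaffold 526 from 300620 to 300872 with 0.637 and that of scaffold 308 from 137040 to 137440 with 0.665. The 63 regions in all 3 libraries had a median ratio of 0.987, so that their 20 h and 12 h lengths were closer than over all solitary regions.

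Most solitary regions were supported by replicate 1 at 20 h, and a minority by both biological replicates. Peaks of replicate 1 (TR1 or TR2) overlapped 95.8% of solitary regions (93.0 to 97.5). The share was 95.6% for neighboured regions and 94.2% for all pooled 20 h regions, so this support was not particular to solitary regions. A peak of TR1 overlapped 157 solitary regions (50.3%, 44.8 to 55.8), against 68.8% of neighboured regions and 64.3% of all pooled 20 h regions. A peak of TR2 overlapped 284 solitary regions (91.0%, 87.3 to 93.7), against 83.6% of neighboured and 77.8% of all regions. A peak of R2 overlapped 119 (38.1%, 32.9 to 43.6), against 47.9% of neighboured and 37.7% of all regions. TR1 and TR2 thus differed in opposite directions from the neighboured regions although they came from the same embryos. In the study's quality report TR2 had a far larger share of duplicate reads than TR1 or R2. Its library complexity fell in the lowest class of that report, and its reads were single-end while those of TR1 were paired. The part of these differences in the support by TR2 was not tested.

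Peaks in both biological replicates were found at 113 solitary regions (36.2%, 31.1 to 41.7), against 44.9% of neighboured regions and 34.4% of all pooled 20 h regions. The difference from neighboured regions was -8.70 percentage points, and the share was close to that of all regions. Its direction depended on the settings. With library peaks limited to a −log10 p of at least 3 the difference was 4.46 points, with q below 0.05 it was 0.520 points, and with a distance limit of 20000 bp, which left 61 solitary regions, it was 4.27 points. Averaged over length classes it was -2.90 points. All 3 libraries had a peak at 63 solitary regions (20.2%, 16.1 to 25.0), against 29.3% of neighboured and 20.6% of all regions.

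The most frequent pattern among solitary regions was a peak in TR2 alone, as the plot of library combinations shows. It was found at 97 regions (31.1%), against 15.8% of neighboured regions and 20.5% of all pooled 20 h regions. TR1 and TR2 without R2 followed with 79 regions (25.3%), against 27.2% of all regions. TR2 with R2 accounted for 45 (14.4%), against 9.39% of all regions. TR1 alone accounted for 10 regions (3.21%), against 12.0% of all regions. R2 alone accounted for 6 (1.92%), against 3.26%, and TR1 with R2 for 5 (1.60%), against 4.39%. The list of TR2 is the longest, with 300000 peaks, the highest number the authors kept, against 248700 in TR1 and 160654 in R2, so that the share of regions found in a library moves with the length of its list. Regions found in TR2 alone had a median length of 176 bp, against 422 bp for those found in all 3 libraries.

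**Figure D2:**
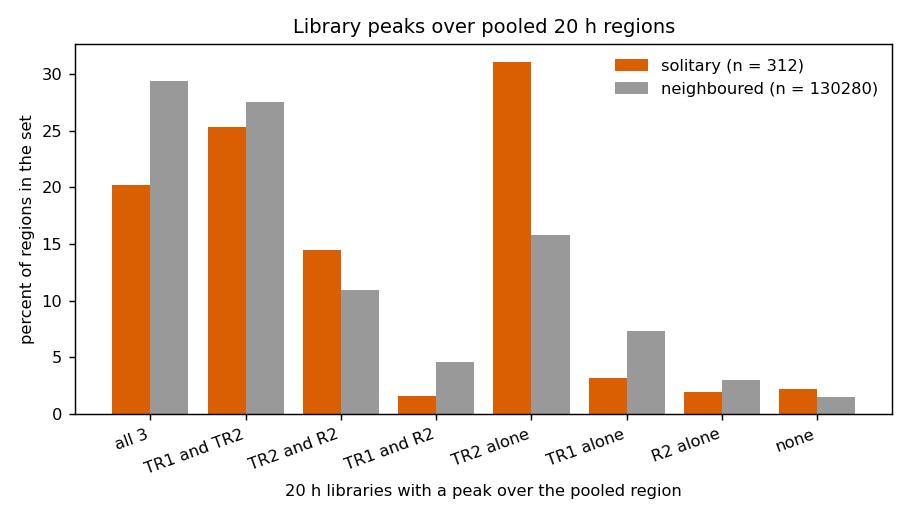
Percent of regions (vertical axis) by the 20 h libraries that had a peak over the pooled region (horizontal axis), for solitary regions (orange, left bars) and neighboured regions (grey, right bars). TR2 alone is the tallest solitary bar at 31.1%, while all 3 libraries is the tallest neighboured bar at 29.3%.

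No library peak overlapped 7 solitary regions (2.24%), against 1.47% of neighboured regions and 2.56% of all pooled 20 h regions. These 7 were on scaffolds 205, 2085, 63, 6830, 771, 839 and 867 and had a median length of 150 bp. The one on scaffold 6830, from 21415 to 21564, overlapped its 12 h partner by only 8 bp.

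When only peaks with a q below 0.05 were counted, the order of the sets depended on the library. TR1 had such a peak as its best at 124 solitary regions (39.7%), against 45.6% of neighboured and 40.8% of all regions. TR2 had one at 207 (66.3%), against 60.4% of neighboured and 51.8% of all regions. R2 had one at 65 (20.8%), against 20.6% of neighboured and 15.2% of all regions. Solitary regions were thus less often covered than neighboured ones in TR1, more often in TR2 and about as often in R2.

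Fold enrichment is the signal of a peak over its local background as the peak caller gave it. Its median was higher at solitary regions than at neighboured regions in all 3 libraries, although in R2 the interval of the solitary median reached the neighboured median. For the best peak of each region by −log10 p, the median fold at solitary regions was 3.75 in TR1, 3.43 in TR2 and 3.65 in R2. At neighboured regions it was 3.15, 3.01 and 2.92 in the same libraries. The binomial interval of the solitary median was 3.75 to 3.75 in TR1, 3.43 to 3.86 in TR2 and 2.92 to 4.38 in R2. Many fold values were tied on the steps described below, so that the interval in TR1 had no width. In R2, the only library of biological replicate 2, the interval thus reached down to the neighboured median. The mean over biological replicates, with technical replicates averaged first, was 3.62 ± 0.04 at solitary and 3.00 ± 0.11 at neighboured regions (SD, n = 2 each). The ratio on the log2 scale was 0.27 ± 0.07 (SD, n = 2), a 1.21-fold difference, and was positive in each library. These SDs are taken over 2 values made from medians and leave out the width of the intervals. With 2 biological replicates an exact test cannot give a two-sided p under 0.5, so that no test was made. The difference was larger among strong peaks. The level exceeded by 10% of peaks was 6.97 in TR1, 6.74 in TR2 and 8.77 in R2 at solitary regions, against 4.67, 4.59 and 5.76 at neighboured regions.

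**Figure D3:**
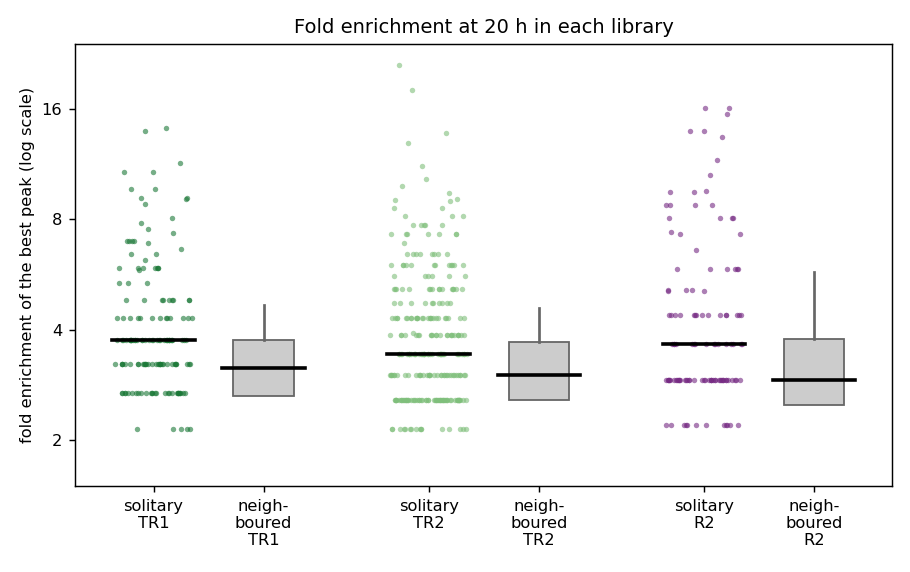
Fold enrichment at 20 h (vertical axis, log scale) of the best peak of each solitary region (points) in TR1, TR2 and R2, beside the neighboured regions of the same library (grey box from the 25th to the 75th percentile, line up to the 90th). Black lines are medians, which are higher at solitary regions in each library (3.75, 3.43 and 3.65 against 3.15, 3.01 and 2.92), and the points lie on discrete steps.

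Fold values at solitary regions fell on a ladder of equal steps. The peak caller does not let the local background drop below a genome-wide value, and a peak on that value has a fold that is a whole multiple of a fixed step, which was 0.536 in TR1, 0.429 in TR2 and 0.731 in R2. At solitary regions the best peak was on such a step (within 0.002) at 147 of 157 regions in TR1 (93.6%), 279 of 284 in TR2 (98.2%) and 109 of 119 in R2 (91.6%). The mean over biological replicates was 93.8% ± 3.07 at solitary regions, against 21.3% ± 2.36 at neighboured regions (SD, n = 2 each) and 27.4% over all 20 h regions. By this reading nearly all solitary peaks were scored against the lowest background the caller allows, whereas most neighboured peaks were scored against a higher local one. Distance from other regions was a condition of the choice, and the share on a step was already 83.5% at 5001 to 10000 bp. The contrast in this share is therefore tied to the choice and given as a description. With peaks on a step alone, so that both sets had the same background, the log2 ratio of solitary to neighboured fold was 0.26 ± 0.08 (SD, n = 2). The medians then were 7, 8 and 5 steps at solitary and 6, 7 and 4 steps at neighboured regions in TR1, TR2 and R2, so the difference amounted to 1 step in each library.

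The enrichment of solitary regions varied with their length. By length class the mean fold over biological replicates was 3.38 ± 0.38 under 200 bp, 3.70 ± 0.07 from 200 to under 300 bp, 3.26 ± 0.47 from 300 to under 500 bp and 4.81 ± 0.60 at 500 bp or more (SD, n = 2). In neighboured regions of the same classes it was 2.79, 2.92, 3.00 and 3.51. By this mean solitary regions were the higher in every class, although from 300 to under 500 bp the difference was within 1 SD of the solitary value. In that class the R2 medians were equal at 2.92. Only TR1 (3.75 against 3.13) and TR2 (3.43 against 3.01) were higher at solitary regions. The share found in both biological replicates was 15.5%, 40.4%, 45.7% and 73.0% at solitary regions of these classes, against 21.2%, 37.5%, 52.7% and 73.4% at neighboured regions. Short regions were more common among solitary ones, with 37.2% under 200 bp against 23.1% of neighboured regions.

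A mean rank of −log10 p over the libraries could be given only to the 63 solitary regions with peaks in TR1, TR2 and R2, and the 10 best ranked of these are described here. Scaffold 452 from 201936 to 202795 had folds of 8.81 in TR1, 9.45 in TR2 and 16.1 in R2. Its mean over biological replicates was 12.6 ± 4.92 (SD, n = 2), its 12 h partner ran from 201986 to 202781, and the nearest other region was 12698 bp away. Scaffold 2209 from 19537 to 20306 had folds of 9.09 in TR1, 8.16 in TR2 and 15.4 in R2, and the nearest other region was 85074 bp away. Both were highest in R2 and had 2 peaks in each library. Scaffold 328 from 232270 to 233233 was also highest in R2, with folds of 9.65 in TR1, 7.30 in TR2 and 13.4 in R2, and its end was the same at 12 h. Scaffold 262 from 113545 to 114860 had folds of 6.63 in TR1, 8.94 in TR2 and 11.6 in R2.

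In others of the 10 the order was turned or the libraries were close. Scaffold 1618 from 165868 to 166473 had folds of 14.1 in TR1 and 18.0 in TR2 but 8.77 in R2. Scaffold 1105 from 69236 to 69506 had folds of 10.7 in TR1, 11.2 in TR2 and 8.77 in R2. Its best summits lay at 69356, 69375 and 69363, within 19 bp of each other. Compact regions of this kind, with a single peak in each library, were also found on scaffold 308 from 137040 to 137440 (9.65, 10.3 and 8.04 in TR1, TR2 and R2) and on scaffold 427 from 370088 to 370339 (6.43, 7.73 and 8.04). On scaffold 427 the summits lay at 370211, 370201 and 370207, within 10 bp. The remaining 2 were long. Scaffold 626 from 105244 to 106656 had folds of 7.79, 9.05 and 7.36 in TR1, TR2 and R2, and scaffold 1407 from 73854 to 76044 had folds of 5.80, 5.60 and 5.10.

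Over the 63 solitary regions with peaks in all 3 libraries the mean fold of biological replicates ran from 2.67 to 12.6 with a median of 4.63. In 16 of them the fold was 5 or more in both biological replicates, and in none was it 10 or more in both. Their median rank by −log10 p, averaged over libraries, was at 20.5% of the regions with a peak in the library, where 0 is the best, against 42.5% for neighboured regions found in all 3. The −log10 p also depends on the background of a peak, which differed between the sets, so these ranks are a description too. Among the best 1000 regions of each library 11 were solitary in TR1, 9 in TR2 and 4 in R2. For comparison, solitary regions were 157 of 166217 pooled regions with a peak in TR1, 284 of 201035 in TR2 and 119 of 97430 in R2. The highest fold at any solitary region was 21.04, in TR2 on scaffold 907 from 54985 to 55231, a region singled out after its values were seen. It had a fold of 9.11 in TR1 and no peak in R2.

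Biological replicates often differed at the same solitary region. Of the 113 found in both, 50 had a higher fold in replicate 2 and 63 a lower one, with a median ratio of 0.920 and a median SD over the replicates of 0.970. Among the 63 with peaks in all 3 libraries, the highest ratios were on scaffold 990 from 95288 to 95546, where R2 had a fold of 16.03 against 4.29 in TR1 and 6.44 in TR2, on scaffold 3244 from 13584 to 13967 (8.77 in R2, 3.75 in TR1 and 3.01 in TR2) and on scaffold 2515 from 130360 to 130746 (9.50 in R2, 3.22 in TR1 and 4.29 in TR2). The lowest of the 63 were on scaffold 842 from 163213 to 163669 (2.19 in R2, 4.29 in TR1 and 9.88 in TR2), scaffold 2876 from 11011 to 11467 (3.65 in R2, 10.7 in TR1 and 12.9 in TR2) and scaffold 567 from 255200 to 255874 (4.38 in R2, 11.4 in TR1 and 13.7 in TR2). Across solitary regions the Spearman correlation of fold was 0.56 between the technical replicates (n = 142 regions), 0.33 between TR1 and R2 (n = 68) and 0.31 between TR2 and R2 (n = 108). At neighboured regions it was 0.36, 0.29 and 0.32 for the same pairs, so low values between biological replicates were not particular to solitary regions. These values describe regions sharing the same libraries. Nuclear preparation differed between the biological replicates, and its part in the differences was not tested.

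Best summits of the libraries lay closer together at solitary regions than at neighboured ones. The best summits of R2 and TR1 lay a median of 42.5 bp apart (95% binomial interval of the median 29 to 64, n = 68 regions) at solitary and 101 bp at neighboured regions. For R2 and TR2 the medians were 33.5 bp (19 to 44, n = 108) and 83 bp in the same order, and for the technical pair they were 31 bp (25 to 43, n = 142) and 81 bp. Technical replicates at solitary regions were therefore about as far apart as biological replicates. Summits within 20 bp made up 30.9% for R2 and TR1, 42.6% for R2 and TR2 and 37.3% for the technical pair at solitary regions, against 13.9%, 17.2% and 16.8% at neighboured regions.

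Closer summits were also found within classes of length. Averaged over both biological pairs, the median distance at solitary regions was 18.75 bp under 200 bp, 17 bp from 200 to under 300 bp, 46.25 bp from 300 to under 500 bp and 113 bp at 500 bp or more, against 50.5, 57, 94 and 153.5 bp at neighboured regions. The shortest class held only 2 solitary regions for R2 and TR1. A best peak had only to overlap the region, so that its summit could lie outside it. Under 200 bp, summits were over 200 bp apart at 387 of 2583 neighboured regions for R2 and TR1. For R2 and TR2 this held at 572 of 4579, and at 0 solitary regions for either pair. The part of such summits in the differences was not tested. In the longest class the order held for R2 and TR1, with 73 bp at solitary and 165 bp at neighboured regions, but not for R2 and TR2, with 153 and 142 bp, nor for the technical pair, with 199 and 155 bp. The best summit lay inside the 12 h partner at 145 of 157 solitary regions in TR1 (92.4%), at 265 of 284 in TR2 (93.3%) and at 115 of 119 in R2 (96.6%), against 88.2%, 92.6% and 90.4% at neighboured regions.

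Several of these measures changed with distance, as the plots by distance to the nearest other region show. The share of best peaks on a step was 21.1% at distances of 101 to 1000 bp, 24.6% at 1001 to 2000 bp, 43.8% at 2001 to 5000 bp, 83.5% at 5001 to 10000 bp and between 92.7% and 94.9% at the solitary regions beyond. The mean fold followed a similar course, with 2.99 at 101 to 1000 bp, 3.51 at 2001 to 5000 bp and 3.62 at 5001 to 10000 bp, and between 3.62 and 3.68 beyond. Fold and background level thus changed between 1000 and 10000 bp rather than at the limit that defines solitary regions. Coverage by TR1 was 75.0% at distances up to 100 bp and 40.6% beyond 20000 bp, while coverage by TR2 was 85.1% and 97.1% at the same distances. The course was not even, since at 15001 to 20000 bp TR1 covered 57.1% and TR2 83.1%, against 51.2% and 92.2% at 10001 to 15000 bp. The share with peaks in both biological replicates was 33.1% (26.4 to 40.6) for 166 solitary regions at 10001 to 15000 bp, 33.8% (24.2 to 44.9) for 77 at 15001 to 20000 bp and 46.4% (35.1 to 58.0) for 69 beyond, intervals that overlap.

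**Figure D4:**
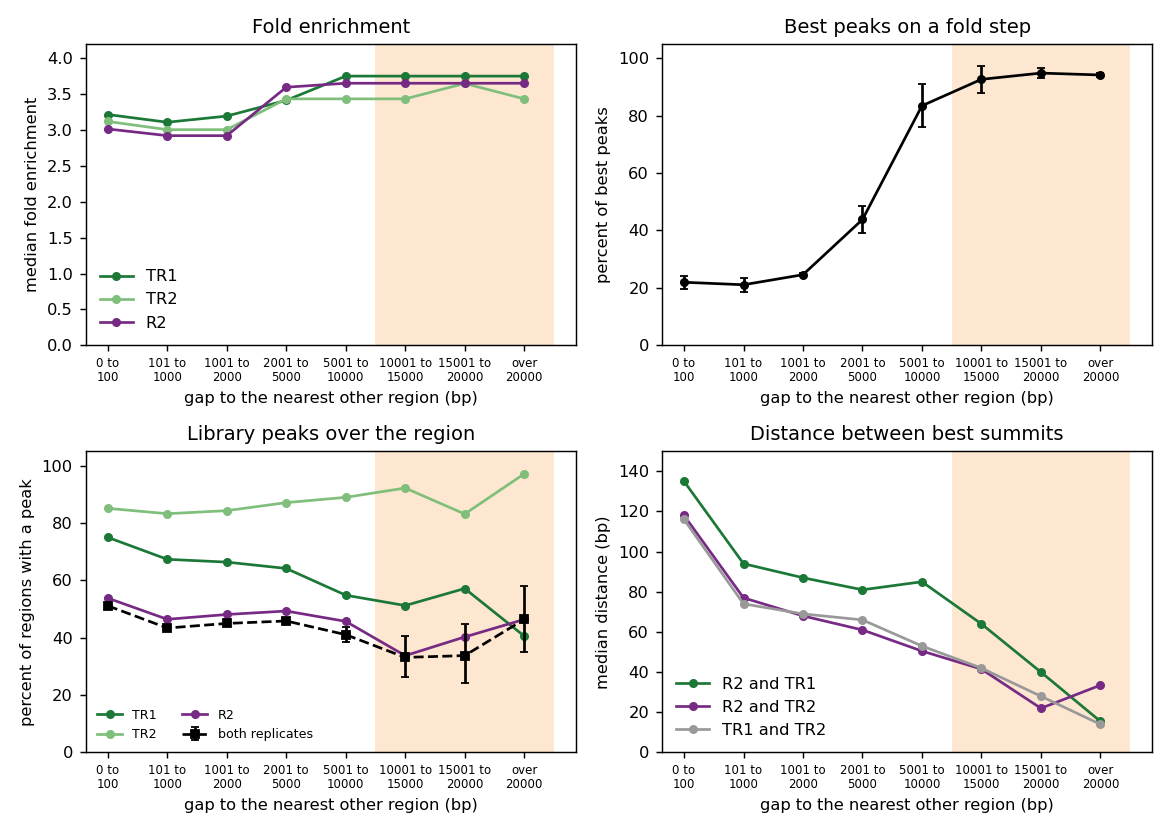
Values at shared 20 h regions by the distance in bp to the nearest other region of either stage (horizontal axes, solitary regions shaded): median fold enrichment in TR1, TR2 and R2, percent of best peaks on a fold step (mean of 2 biological replicates, bars are SD), percent of regions with a library peak (bars on the share in both replicates are 95% Wilson intervals), and median distance in bp between best summits for each pair of libraries. Peaks on a step make up 21.1% at 101 to 1000 bp and 92.7% or more at solitary regions, and summit distances are shorter at solitary regions than at closer spacing.

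Regions on either side of the distance limit were close in fold and summit distance but not in length ratio, and the intervals of their support overlapped. The 44 solitary regions with another region at 10039 to 10951 bp had a median length of 242.5 bp and a length ratio of 20 h to 12 h of 0.848. Their mean fold was 3.63 ± 0.55, with peaks in both biological replicates at 16 regions (36.4%, 23.8 to 51.1). The 66 regions just outside the limit, at 9018 to 9996 bp, had a median length of 276 bp and a ratio of 1.01. Their mean fold was 3.60 ± 0.08, with peaks in both replicates at 29 regions (43.9%, 32.6 to 55.9). Best summits of the biological replicates lay 66.5 bp apart inside the limit and 67.25 bp apart outside it.

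Of the 5 regions farthest from any other, 4 had no fold over 5. On scaffold 2819 the region from 39360 to 39527, 127447 bp from the nearest other, had folds of 2.58 in TR2 and 4.38 in R2 and no peak in TR1. On scaffold 723 the region from 54745 to 54960, at 111601 bp, had folds of 3.75 in TR1, 3.86 in TR2 and 2.92 in R2. Scaffold 467 from 519403 to 519596, at 83491 bp, had folds of 3.43 in TR2 and 2.92 in R2. Scaffold 1173 from 188413 to 188738, at 78835 bp, had a peak in TR2 alone with a fold of 3.43. The region on scaffold 2209 described above, at 85074 bp and with folds of up to 15.4, was the fifth.

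The flanks of solitary regions were also poor in library peaks that entered neither pooled list. Such peaks overlapped no pooled region of either stage and were not used to choose the regions, although the pooled lists come from the same libraries. Within 10000 bp of solitary regions there were 66 in TR1, 194 in TR2 and 55 in R2, or 0.106, 0.312 and 0.0885 per 10 kb of sequence outside pooled regions. In the flanks of neighboured regions the same libraries had 0.921, 0.767 and 0.700 per 10 kb, and over all sequence outside pooled regions 0.668, 0.722 and 0.472. Flanks were counted for each region, so that peaks and sequence in overlapping flanks were counted more than once. Neighboured flanks came to 2039004003 bp in this way, against 748385603 bp of all sequence outside pooled regions. The mean over biological replicates was 0.149 ± 0.085 beside solitary regions and 0.772 ± 0.102 beside neighboured regions (SD, n = 2 each), and solitary flanks were the lower in every library. Without TR2 the mean beside solitary regions was 0.0973 per 10 kb. Mappable length was not measured, so that its part in the difference was not tested.

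Peaks in the flanks were not evenly placed. In the first 1000 bp beside solitary regions the mean was 0.270 per 10 kb, against 0.148 from 1000 to 2000 bp, 0.144 from 2000 to 5000 bp and 0.128 from 5000 to 10000 bp, and TR2 had the most in each interval. No library had a peak in the flanks of 154 solitary regions (49.4%), 1 library had at 103, 2 libraries had at 48 and all 3 had at 7. Nearly equal numbers of solitary regions therefore stood alone in the separate libraries and had at least 1 such peak nearby. No such counts are given for other regions, so that this split is a description of solitary regions only. With flank peaks limited to a −log10 p of at least 3 the mean density beside solitary regions was 0.0499 per 10 kb, and with q below 0.05 it was 0.0249.

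**Figure D5:**
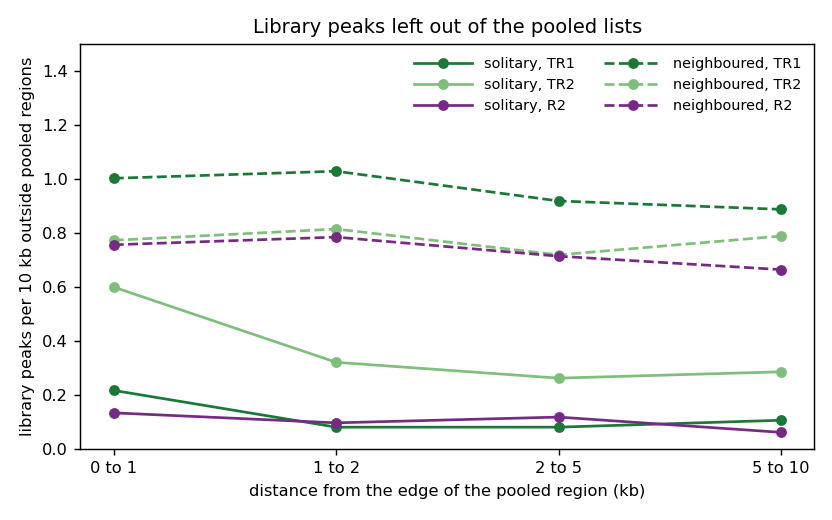
Library peaks that overlap no pooled region, per 10 kb of sequence outside pooled regions (vertical axis), by distance in kb from the edge of the pooled region (horizontal axis), beside solitary regions (solid lines) and neighboured regions (dashed lines) in TR1, TR2 and R2. All solid lines lie below the dashed lines of the same library, with 0.312 against 0.767 in TR2 over the whole 10 kb. Peaks and sequence in overlapping flanks are counted for each region.

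None of the 312 solitary regions lay in any of the 389 genomic segments whose reporter activity the study compiled, which allows a share of up to 0.962%. Of neighboured regions 331 (0.254%) and of all 20 h regions 522 (0.202%) lay in such a segment, so that a share of this size in 312 regions was not detectable. On scaffolds with tested segments there were 5 solitary regions, the nearest 60109 bp from the tested span.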

How the data were processed

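Mapping by the authors was to version 3.1 of the *S. purpuratus* genome, in the ATAC-seq pipeline of ENCODE. Peaks were called there by MACS2 (version not given in the sources used here) at a p threshold of 0.05, and at most 300000 were kept. The authors deposited a list of peaks for each 20 h library, holding the −log10 of p, the −log10 of q and the fold enrichment over a local background, and a list of merged regions without a score for each stage, called on pooled libraries. The deposited lists hold no read counts, and no value was adjusted for depth. The study's read totals show that 12 h embryos were sequenced more deeply, and among 20 h libraries TR2 had the most reads and R2 the fewest, the order of their numbers of peaks.

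Regions are given by scaffold and 1-based position in version 3.1, and scaffold ends were taken as the highest coordinate in any list. A region was found in a library when a peak overlapped it by 1 bp or more, and the peak with the best −log10 p stood for it. Means and SDs are over 2 biological replicates, with technical replicates averaged first. Regions are not replicates, so no test was made. The study's own tables gave only the positions of reporter segments. Neighbour limits, overlap rules, peak thresholds, comparison sets and libraries were varied. The solitary regions and all comparisons were chosen with earlier results of these data known. Named regions are the 10 best ranked, the 5 farthest, the 5 longest, the 3 scaffolds with most members (ties by name) and, only among regions with peaks in all 3 libraries, the 5 with the highest and lowest length ratio and the 3 with the highest and lowest replicate ratio, plus 7 regions without a library peak and 1 on scaffold 907 that were chosen after their values were seen. No genome or annotation of version 3.1 was used here, so no sequences are shown. Functions were tested on simulated data and by exhaustive search. Python 3.11.15, numpy 2.4.6, pandas 2.3.3, scipy 1.17.1 and matplotlib 3.10.9 were used.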

Additional observations from a re-analysis of the deposited data

How the results depend on the processing

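The number of solitary regions followed the distance limit, with 1451 at 5000 bp and 61 at 20000 bp in place of 312. At 5000 bp the length ratio to neighboured regions was 0.911 (0.778 as reported), the summit distance 63.25 bp (38 bp as reported) and the flank density 0.318 per 10 kb (0.149 as reported). At 20000 bp the share found in both biological replicates differed by 4.27 percentage points from neighboured regions (-8.70 as reported), the log2 fold ratio was 0.20 (0.27 as reported) and the summit distance 20.5 bp. With library peaks of −log10 p of at least 3 these were 4.46 points and 0.12 on the log2 scale, and the flank density was 0.0499. With q below 0.05 the support difference was 0.520 points and the flank density 0.0249. Averaged over length classes the support difference was -2.90 points. Among alternatives chosen after seeing the data, regions with a peak in all 3 libraries gave a log2 fold ratio of 0.43, a length ratio of 0.917 and a ratio of 20 h to 12 h length of 0.987, and regions with at most 1 peak in each library gave a summit distance of 23.5 bp. The causes were not tested. Without TR1 the support difference was -5.68 points and without TR2 -12.2 points, and without R2 it cannot be had. The flank density was between 0.0973 (without TR2) and 0.209 (without R2) when each library was left out. The log2 fold ratio stayed positive under all 16 alternatives. No paired analysis was possible because separate 12 h lists were not used here. The small number of solitary regions and of replicates limits all of these values.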
